A study of Mus musculus with 28 samples.

Results

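The genes described here make up the cholesterol and fatty acid synthesis and uptake programme of the cell: 35 genes, of 13495 tested, taken by name from a table of kidney RNA levels. They comprised 6 enzymes of the mevalonate pathway, 11 enzymes that turn its products into cholesterol, 6 genes that control the programme or carry sterols inside the cell, 8 genes of fatty acid synthesis and 4 genes of lipid uptake and efflux. All 35 genes were in the table and all 35 passed the filter for testing, which asked for 5 or more libraries with a value of 1 or more. RNA was sequenced from kidneys of male mice in 28 libraries. The controls were db/m mice with both kidneys, called intact in the labels, at 26 weeks of age (5 libraries) and 35 weeks (6 libraries). The diseased mice were db/db mice at 26 weeks (12 libraries) and 35 weeks (5 libraries). They are homozygous for the db mutation of the leptin receptor gene and become obese and diabetic. Each of them had been uninephrectomized (Unx), meaning that 1 kidney was removed, so that the kidney profiled was the remaining one. No group held intact db/db mice or uninephrectomized db/m mice, so the effects of genotype and of surgery cannot be told apart, and setting the diseased mice against the controls of their own age is called the disease comparison. The labels do not say that each library came from a separate animal, and p-values therefore measure a spread among libraries that may be technical.

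Cholesterol is built from acetyl-CoA through the mevalonate pathway, which makes isoprene units, and through squalene and lanosterol, which a chain of endoplasmic reticulum enzymes trims to cholesterol. The transcription factor SREBP2 switches on this whole chain when sterols in the membrane run low, and SREBP1c, its relative, favours fatty acid synthesis in response to insulin and to LXR, a nuclear receptor that senses oxidised sterols. The proximal tubule of the kidney lives largely on fatty acids taken up from blood and filtrate, and lipid accumulation in tubule cells has been described in diabetic kidney disease.

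The values are the authors' scaled signal per gene, and how they were scaled is not given in the sources used here. They were taken as read counts without a length correction, so a value is compared between libraries for 1 gene and not between genes. Estimated depth was 21.7 to 30.7 M (mega) counts per library, and libraries of 1 group correlated across genes with Pearson r of at least 0.971. Replicates 03, 05 and 06 of db/db Unx at 35 weeks lay apart from the rest on the second principal component of all genes, and counts at 35 weeks are therefore also given without them. Kidney markers were present in every library: the summed value of 10 proximal tubule genes, Lrp2 and Slc34a1 among them, lay between 11460 and 15945. Because these are whole tissue samples, fewer cells of a type and less RNA per cell cannot be told apart.

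In diseased kidney the synthesis programme did not move as a block. Enzymes of cholesterol synthesis were lower or not called, with none higher, while fatty acid synthesis genes were called in both directions and the 2 largest falls outside the sterol enzymes were those of the uptake genes Cd36 and Lpl. At 26 weeks, 4 of the 35 genes rose and 13 fell at an adjusted p below 0.05 (limma, Benjamini-Hochberg over all genes tested), against 17.2% of all genes rising and 17.7% falling. At 35 weeks 4 rose and 15 fell, against 15.9% and 16.4% of all genes, and without the 3 libraries that lay apart 4 rose and 12 fell, against 8.43% and 9.52% of the 13417 genes in that fit. The median log2 change of the 35 genes was -0.09 at 26 weeks and -0.10 at 35 weeks, beside 0.02 and 0.01 over all genes tested. Acly, Scd1, Elovl6 and Abca1 rose at both ages, where 9.99% of all genes did so, and 13 fell at both ages, where 12.4% of all genes did. None was called in opposite directions, and 16 were called at neither age. All libraries of a diseased group lay above all controls in 3 genes at each age, and below them in 10 genes at 26 weeks and 11 at 35 weeks. Over all genes, 5.11% lay above and 7.68% below at 26 weeks, and 7.84% above and 10.3% below at 35 weeks. The disease comparisons of the 2 ages share no library.

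**Figure D1:**
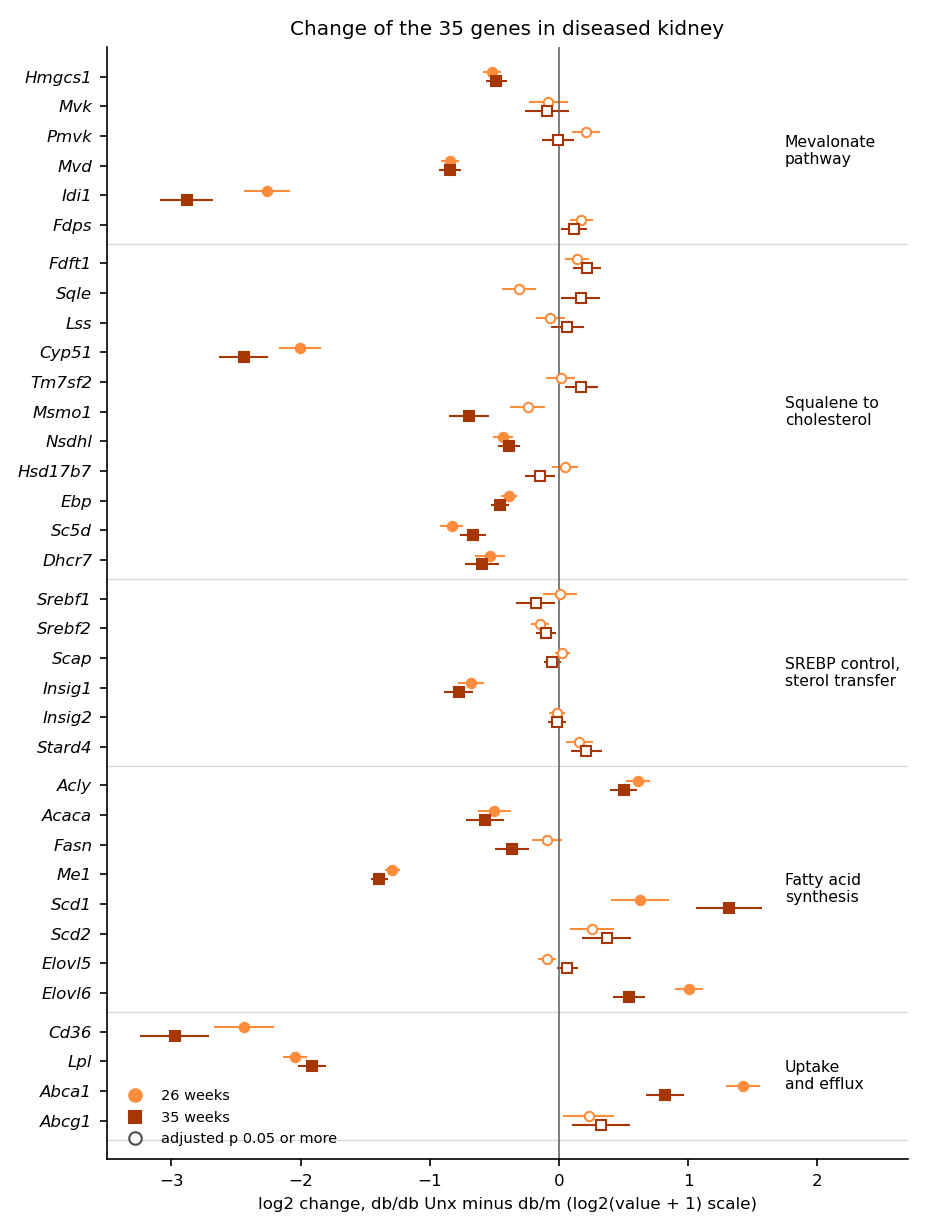
Log2 change of each of the 35 genes in db/db Unx against db/m kidney on the log2(value + 1) scale, with circles for 26 weeks and squares for 35 weeks, bars showing the standard error and open symbols marking genes with an adjusted p of 0.05 or more. Idi1, Cyp51, Cd36 and Lpl lie farthest to the left, at -1.91 to -2.98, and the rightmost points belong to Abca1 at 26 weeks (1.43) and Scd1 at 35 weeks (1.32).

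Of the 6 enzymes of the mevalonate pathway, Hmgcs1, Mvd and Idi1 fell at both ages, where 12.4% of all genes did. Mvk, Pmvk and Fdps were called at neither age. The deepest fall was that of Idi1, the isomerase that interconverts the 5-carbon isoprene units (ENSMUSG00000058258, chr13:8885501-8892451, plus strand). Its value in the 5 db/m libraries of 26 weeks was 104, 105, 90.4, 113 and 106, and the 12 db/db Unx libraries ran from 12.7 to 28 with a median of 21.9. At 35 weeks the 6 db/m libraries ran from 68.9 to 136 with a median of 123 and the 5 db/db Unx libraries read 19.98, 14.8, 20.7, 9.82 and 10.7. The groups did not overlap at either age: the highest diseased library of 26 weeks was below the lowest control of that age, and the same held at 35 weeks. Idi1 was 4.78-fold lower at 26 weeks (-2.26, SE 0.179, adjusted p = 6.66e-11) and 7.37-fold lower at 35 weeks (-2.88, SE 0.204, adjusted p = 1.00e-11). Idi1 has a close paralogue, Idi2, and how reads shared by related sequences were counted is not given in the sources used here.

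Mvd, which decarboxylates mevalonate pyrophosphate to the first isoprene unit (ENSMUSG00000006517, chr8:122433601-122443422, minus strand), fell by 0.84 on the log2 scale at both ages. Its 5 db/m libraries of 26 weeks read 75.3, 74.4, 64.2, 88 and 75.4, against 36.5 to 46 with a median of 41.6 in db/db Unx. The 6 db/m libraries of 35 weeks ran from 65.6 to 79.5 with a median of 72.9 and the 5 db/db Unx libraries read 48, 40.5, 41.3, 38.8 and 32.2. Again no diseased library reached the lowest control of its age, either at 26 weeks (-0.84, SE 0.0735, adjusted p = 9.13e-12) or at 35 weeks (-0.84, SE 0.0836, adjusted p = 2.65e-10). Hmgcs1, the enzyme that condenses acetyl units at the entry of the pathway, fell less, by 0.52 on the log2 scale at 26 weeks (adjusted p = 1.43e-07) and by 0.48 at 35 weeks (adjusted p = 6.63e-06), and its groups also did not overlap. The kinases Mvk and Pmvk, which act between Hmgcs1 and Mvd, and Fdps, which joins the isoprene units to farnesyl pyrophosphate directly after Idi1, had log2 changes between -0.09 and 0.21, and their groups overlapped at both ages. Genes that were called and genes that were not were therefore interspersed along the pathway. A missing call does not show that a change was absent.

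**Figure D2:**
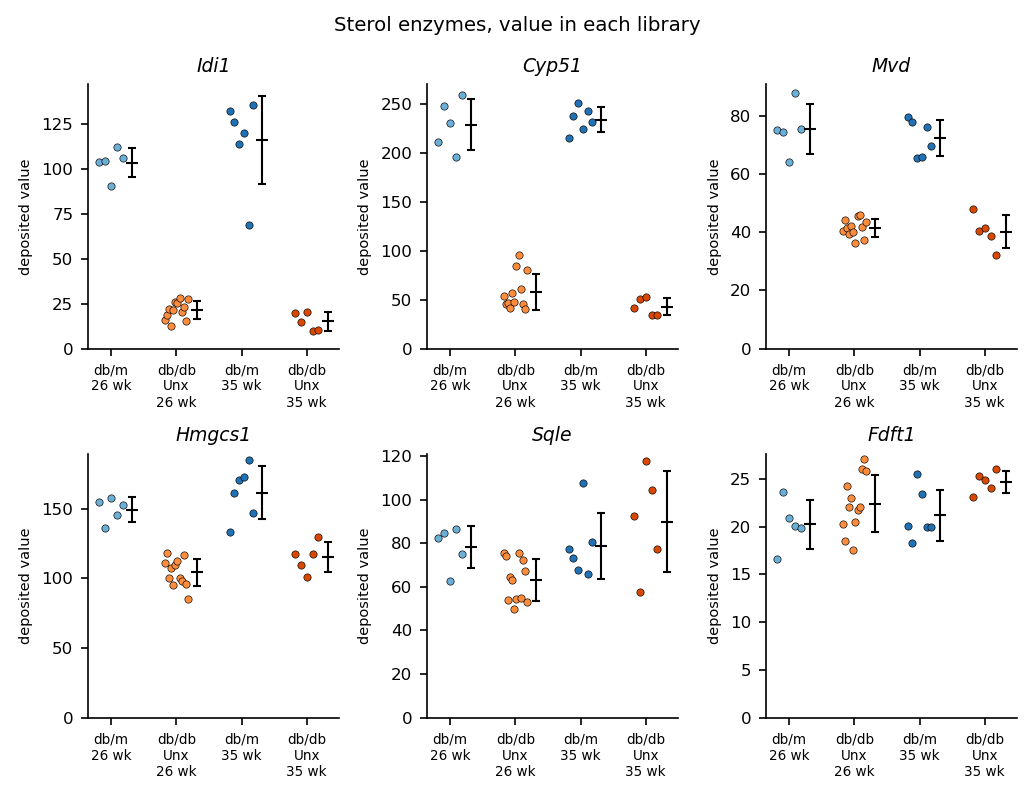
Deposited value of 6 sterol enzymes in each library, 1 point per library, with the group mean and SD drawn beside the points and each vertical axis starting at 0. Idi1, Cyp51, Mvd and Hmgcs1 lie lower in db/db Unx than in db/m at both ages without overlap, while the groups of Sqle and Fdft1 overlap.

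Of the 11 enzymes from squalene to cholesterol, 5 fell at 26 weeks and 6 at 35 weeks, and none rose. Of all genes tested, 17.7% fell at 26 weeks and 16.4% at 35 weeks. Cyp51, the demethylase that removes a methyl group from lanosterol (ENSMUSG00000001467, chr5:4081145-4104746, minus strand), fell most. The 5 db/m libraries of 26 weeks read 211, 248, 230.1, 196 and 258, and the 12 db/db Unx libraries ran from 40.8 to 95.7 with a median of 50.9. Kidneys of db/m mice at 35 weeks ran from 215 to 250.4 with a median of 234 and the 5 db/db Unx libraries read 42, 50.5, 52.8, 34.2 and 34.7. Diseased and control libraries were separated at both ages, with a 4.01-fold lower level at 26 weeks (-2.004, SE 0.164, adjusted p = 2.01e-10) and a 5.43-fold lower level at 35 weeks (-2.44, SE 0.186, adjusted p = 7.59e-11). Cyp51 overlaps Akap9 on the other strand, and whether counting used strand is not given in the sources used here. Akap9 itself had log2 changes of -0.13 and -0.11 and was called at neither age.

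Sc5d, the desaturase of a late sterol ring step (ENSMUSG00000032018, chr9:42251595-42264256, minus strand), read 70.6, 64.4, 67.7, 54.5 and 72.1 in the 5 db/m libraries of 26 weeks and ran from 32 to 43 with a median of 36 in db/db Unx. At 35 weeks db/m ran from 41.6 to 63 with a median of 53.1 and the 5 db/db Unx libraries read 31.3, 42.1, 31.1, 28.4 and 29.9. The groups were apart at 26 weeks (-0.83, SE 0.0878, adjusted p = 9.09e-10), and at 35 weeks 1 diseased library, replicate 02, lay within the control range (-0.66, SE 0.0998, adjusted p = 1.63e-06). In the rest of the late chain, 3 enzymes fell at both ages by smaller amounts: Nsdhl, which decarboxylates sterol intermediates (-0.43 and -0.39), Ebp, a sterol isomerase (-0.39 and -0.46), and Dhcr7, which performs the last reduction in the route through lathosterol (-0.53 and -0.60). Msmo1, the oxidase that acts with Nsdhl on the methyl groups left after Cyp51, was called only at 35 weeks (-0.24, adjusted p = 0.178 at 26 weeks; -0.70, adjusted p = 5.74e-04 at 35 weeks), and the difference between the ages did not pass the interaction test (adjusted p = 0.344). Without the 3 libraries that lay apart, the 35-week calls of Msmo1 and Nsdhl were lost, with log2 changes of -0.47 (adjusted p = 0.0996) and -0.31 (adjusted p = 0.0639) in a fit with 2 diseased libraries of that age.

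The smaller falls can be read from the values themselves. Ebp ran from 109 to 121 with a median of 119 in db/m and from 74.6 to 97.1 with a median of 91.2 in db/db Unx at 26 weeks, and from 98.2 to 111 with a median of 106 and 69.5 to 92.7 with a median of 73.5 at 35 weeks, without overlap at either age. Nsdhl ran from 68.3 to 93.2 with a median of 82.5 and 52.4 to 76.5 with a median of 57.5 at 26 weeks and from 66.7 to 85.5 with a median of 83.2 and 52.9 to 67.1 with a median of 60.8 at 35 weeks, with overlap at both ages. Dhcr7 ran from 11.2 to 20.9 with a median of 18.8 and 9.76 to 13.8 with a median of 11.9 at 26 weeks, with overlap, and from 13.7 to 20.3 with a median of 17.1 and 8.16 to 12.2 with a median of 11.4 at 35 weeks, without. So among these 3 enzymes Ebp was the one separated at both ages.

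Fdft1, Sqle, Lss, Tm7sf2 and Hsd17b7 were called in neither disease comparison. The first 3 of these make squalene, oxidise it and close it into lanosterol, directly upstream of Cyp51. Their log2 changes ran from -0.31 to 0.22, and the closest to a call was Sqle at 26 weeks (-0.31, adjusted p = 0.0721). Fdft1 overlaps Ctsb on the other strand, and Ctsb, a lysosomal protease gene, rose at both ages by 0.41 and 0.50 on the log2 scale. The part of Ctsb reads in the Fdft1 value was not tested. Tm7sf2 overlaps Vps51 on the same strand, which was lower at 35 weeks (-0.26). Over all 17 sterol enzymes, 0 rose and 8 fell at 26 weeks, 0 rose and 9 fell at 35 weeks, and the median log2 change was -0.31 and -0.39. Of all genes tested, 17.2% rose and 17.7% fell at 26 weeks, and 15.9% rose and 16.4% fell at 35 weeks. Without the 3 libraries that lay apart, 7 fell at 35 weeks, where 9.52% of all genes in that fit fell. In 6 of the 17 at each age the diseased libraries all lay below the controls. Of all genes, 7.68% did so at 26 weeks and 10.3% at 35 weeks. Proximal tubule markers also differed between the groups: 6 of 10 fell and 1 rose at 26 weeks. The summed value of these markers ran from 14691 to 15795 in db/m and from 12375 to 14954 in db/db Unx. At 35 weeks 5 fell and 1 rose, with sums of 14084 to 15945 and 11460 to 13196. The largest fall among those markers was that of Lrp2, by 0.74 on the log2 scale at 35 weeks. Of 6 adrenal markers, genes of a tissue rich in sterol synthesis, 2 were in the table, with a summed value of 0.659 to 4.23 over all libraries, and neither was called. The part of tubule markers in the sterol result was not tested.

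Of the 8 sterol enzymes that fell at both ages, 5 promoters are shown, those of the 4 with the largest falls at 26 weeks and that of Hmgcs1, which holds the sterol regulatory element described here. They let shared letters before the start sites be compared, and the 5 were chosen after their values were seen. RefSeq windows on GRCm38.p6 were available for 27 of the 35 genes, and for 14 of the 17 sterol enzymes. The 250 bases before the annotated start are printed 5′ to 3′ on the gene's own strand, with capitals marking CCAAT or its reverse complement ATTGG (the NF-Y box), CACGTG (an E-box) and TCACCCCAC (a match to TCACNCCAC, a sterol regulatory element).
Idi1 (chr13:8885356-8885605, plus strand): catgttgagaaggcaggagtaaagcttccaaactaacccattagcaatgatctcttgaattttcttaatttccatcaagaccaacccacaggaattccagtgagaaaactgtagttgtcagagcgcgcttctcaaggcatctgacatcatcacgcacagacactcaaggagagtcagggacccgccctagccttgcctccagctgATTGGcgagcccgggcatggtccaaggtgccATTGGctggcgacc
Cyp51 (chr5:4104698-4104947, minus strand): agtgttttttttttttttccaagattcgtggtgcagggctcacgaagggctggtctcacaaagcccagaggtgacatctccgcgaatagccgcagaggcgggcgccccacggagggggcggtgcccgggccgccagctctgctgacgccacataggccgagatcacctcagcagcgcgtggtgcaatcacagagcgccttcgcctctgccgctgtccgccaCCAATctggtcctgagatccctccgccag
Mvd (chr8:122443423-122443672, minus strand): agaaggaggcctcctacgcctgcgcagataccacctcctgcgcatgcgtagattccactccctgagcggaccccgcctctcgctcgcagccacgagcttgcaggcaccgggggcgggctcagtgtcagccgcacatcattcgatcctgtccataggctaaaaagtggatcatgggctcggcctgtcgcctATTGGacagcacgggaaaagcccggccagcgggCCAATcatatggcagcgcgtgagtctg
Sc5d (chr9:42264301-42264550, minus strand): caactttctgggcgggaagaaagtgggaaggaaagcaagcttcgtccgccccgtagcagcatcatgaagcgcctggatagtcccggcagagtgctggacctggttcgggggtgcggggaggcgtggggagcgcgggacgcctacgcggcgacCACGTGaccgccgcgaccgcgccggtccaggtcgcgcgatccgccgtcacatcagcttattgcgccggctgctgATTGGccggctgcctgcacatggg
Hmgcs1 (chr13:119690101-119690350, plus strand): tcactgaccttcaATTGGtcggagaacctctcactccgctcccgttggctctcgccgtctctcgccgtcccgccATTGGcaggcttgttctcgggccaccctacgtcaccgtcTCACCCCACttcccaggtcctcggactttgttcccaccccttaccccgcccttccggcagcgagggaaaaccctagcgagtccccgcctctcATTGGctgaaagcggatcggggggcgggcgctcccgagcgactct

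On both strands, CCAAT was found in a window of all 14 sterol enzymes that had one, against 40% of the tested genes with a window and 33.8% of all 32851 windows in the table. It was present in the 8 enzymes that fell at both ages and equally in the 6 that did not, so its presence did not separate these sets. In Idi1 the motif lay 45 to 41 and 14 to 10 bases before the start, in Cyp51 29 to 25, in Mvd 60 to 56 and 27 to 23, and in Hmgcs1 at 3 places. Among fatty acid synthesis genes 3 of the 6 with a window held it. TCACNCCAC was found in 1 of the 14 sterol enzymes, Hmgcs1, 137 to 129 bases before the start. It was found in 1.24% of the tested genes with a window and in 1.05% of all windows. CACGTG was found in 3 of the 14 sterol enzymes, Sc5d among them, against 9.84% of the tested genes with a window and 6.02% of all windows. The LXR element of the DR4 type, in its consensus form, was found in 0 of the 36 windows of these genes and in 0.0152% of all windows. For Idi1 and Cyp51 the RefSeq start lies inside the GENCODE gene, so part of the window is transcribed in that annotation. These are matches of letters in a short window, and other forms of the same elements were not searched.

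Of the 6 genes of SREBP control and sterol transfer, 1 was called, lower at each age. Over all genes tested, 17.7% fell at 26 weeks and 16.4% at 35 weeks. Insig1, which holds the SREBP escort protein in the endoplasmic reticulum and is itself switched on by SREBP, fell by 0.68 on the log2 scale at 26 weeks (adjusted p = 7.37e-07) and by 0.77 at 35 weeks (adjusted p = 8.80e-07). Its values ran from 21 to 31 with a median of 26.7 in db/m and from 13.6 to 19.9 with a median of 16.7 in db/db Unx at 26 weeks, and from 26.3 to 35.8 with a median of 29.9 and 14.1 to 20.5 with a median of 18.5 at 35 weeks. The groups did not overlap at either age. Srebf2, which encodes SREBP2, had log2 changes of -0.14 (SE 0.0698) and -0.10 (SE 0.0794), and Srebf1, which encodes both forms of SREBP1, 0.01 (SE 0.133) and -0.18 (SE 0.151). Scap, the escort protein, Insig2, the paralogue of Insig1, and Stard4, a carrier of cholesterol between membranes, had log2 changes between -0.05 and 0.21 and were called at neither age. Transcripts of SREBP1c and SREBP1a are not separated in these values, and RNA does not measure the cleaved, active proteins.

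Fatty acid synthesis genes moved in both directions within the pathway. At both ages Acly, Scd1 and Elovl6 rose and Acaca and Me1 fell, Fasn fell at 35 weeks, and Scd2 and Elovl5 were called at neither age. Me1, the cytosolic malic enzyme that makes NADPH for lipid synthesis (ENSMUSG00000032418, chr9:86581371-86695953, minus strand), carried the smallest adjusted p of all 35 genes. It read 732, 645, 610.4, 743 and 659 in the 5 db/m libraries of 26 weeks and ran from 226 to 319 with a median of 279 in db/db Unx. Among older mice db/m ran from 634 to 702 with a median of 662 and db/db Unx read 275, 261, 238, 247 and 246. Every diseased library was far below every control, 2.44-fold lower in the fit at 26 weeks (-1.29, SE 0.0573, adjusted p = 1.65e-19) and 2.62-fold at 35 weeks (-1.39, SE 0.0652, adjusted p = 1.28e-18). Acaca, the cytosolic acetyl-CoA carboxylase that commits acetyl-CoA to fatty acids, fell by 0.50 (adjusted p = 0.00201) and 0.57 (adjusted p = 0.00218) on the log2 scale. Its group medians were between 5.28 and 9.71.

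Elovl6, which lengthens palmitate (ENSMUSG00000041220, chr3:129532355-129638495, plus strand), read 8.74, 9.92, 9.08, 11.2 and 8.74 in the 5 db/m libraries of 26 weeks and ran from 16.2 to 24.9 with a median of 20.1 in db/db Unx. In the older mice db/m ran from 8.5 to 15.6 with a median of 10.8 and db/db Unx read 18, 16.9, 16.1, 16.3 and 14. The groups were separated at 26 weeks, when Elovl6 was 2.01-fold higher (1.01, SE 0.11, adjusted p = 1.83e-09), and overlapped at 35 weeks (0.54, SE 0.125, adjusted p = 8.01e-04). Scd1, the desaturase that makes oleate (ENSMUSG00000037071, chr19:44394455-44407879, minus strand), read 17.1, 19.4, 11.2, 19.7 and 18.4 in db/m of 26 weeks and ran from 12.3 to 37.6 with a median of 28.7 in db/db Unx of that age, with overlap. At 35 weeks db/m ran from 15.7 to 42.6 with a median of 19.997 and db/db Unx read 55.1, 43.6, 55.2, 60.5 and 80.9, without overlap. Scd1 was 1.55-fold higher at 26 weeks (0.63, SE 0.224, adjusted p = 0.0304) and 2.5-fold higher at 35 weeks (1.32, SE 0.255, adjusted p = 2.01e-04). The 26-week call was lost without either of 2 control libraries: without db/m replicate 01 the log2 change was 0.63 (adjusted p = 0.0542) and without replicate 03 it was 0.49 (adjusted p = 0.116), while the 35-week call held without any 1 library.

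Acly, which cuts citrate to cytosolic acetyl-CoA and so feeds both branches, rose by 0.62 (adjusted p = 3.05e-06) and 0.50 (adjusted p = 3.54e-04), from medians of 122 to 204 at 26 weeks and 152 to 209.9 at 35 weeks, and its groups did not overlap. Fasn, the synthase that builds palmitate, had a log2 change of -0.09 at 26 weeks and fell by 0.36 at 35 weeks (adjusted p = 0.0336). That call was lost when any of 6 libraries was left out, db/m replicates 02, 04 and 06 and db/db Unx replicates 03, 05 and 06 of 35 weeks (adjusted p of 0.0525 to 0.115), and without the last 3 together the log2 change was -0.08. Scd2 had log2 changes of 0.26 and 0.37 and was called at 26 weeks in a fit of only the groups compared (adjusted p = 0.0375) and at 35 weeks without db/m replicate 05 (0.51, adjusted p = 0.0232). Scd2 and Scd1 are closely related in sequence, and how reads shared by both were counted is not given in the sources used here. Genes entering, priming and finishing the same product thus moved in different directions: higher RNA for the citrate-cutting enzyme and the 2 modifying enzymes, lower RNA for the carboxylase and the NADPH source. Over the 8 genes 3 rose and 2 fell at 26 weeks and 3 rose and 3 fell at 35 weeks, with median log2 changes of 0.08 and 0.22. Of all genes tested, 17.2% rose and 17.7% fell at 26 weeks, and 15.9% rose and 16.4% fell at 35 weeks. Markers of hepatocytes, cells with high fatty acid synthesis, moved as well: all 5 (Alb, Apoa2, Serpina1a, Ttr and Apob) rose at both ages, with sums of 162 to 208 in db/m and 292 to 444 in db/db Unx at 26 weeks, and 183 to 233 and 312 to 408 at 35 weeks. Podocyte markers rose in 2 of 5 at 26 weeks and 3 of 5 at 35 weeks, and thick ascending limb markers in 3 and 1 of 5, with 1 and 2 lower. Which cells made the RNA of these markers, and the part of such cells in the fatty acid values, were not tested.

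**Figure D3:**
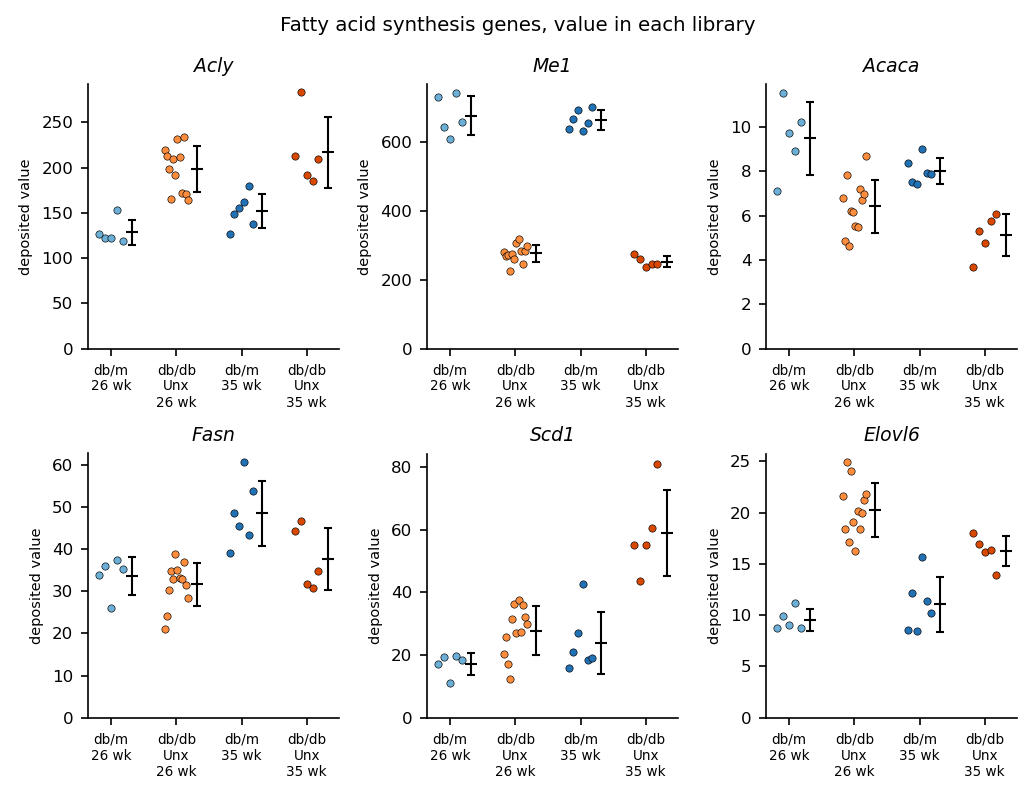
Deposited value of 6 fatty acid synthesis genes in each library, 1 point per library, with the group mean and SD drawn beside the points and each vertical axis starting at 0. Me1 lies lower and Acly higher in db/db Unx at both ages without overlap, and Scd1 is highest in db/db Unx of 35 weeks.

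The largest fall of all 35 genes at each age was that of Cd36, a membrane receptor that takes up long-chain fatty acids and oxidised lipoproteins (ENSMUSG00000002944, chr5:17781690-17888801, minus strand). The 5 db/m libraries of 26 weeks read 541, 448, 358, 546 and 540.5, and the 12 db/db Unx libraries ran from 36.6 to 149 with a median of 92. At 35 weeks db/m ran from 341 to 469 with a median of 425 and db/db Unx read 74.3, 54.6, 31.9, 53.9 and 54.4. No diseased library reached a control of its age, and Cd36 was 5.42-fold lower at 26 weeks (-2.44, SE 0.236, adjusted p = 5.88e-09) and 7.87-fold lower at 35 weeks (-2.98, SE 0.268, adjusted p = 2.07e-09). Lpl, the lipase that frees fatty acids from circulating triglyceride (ENSMUSG00000015568, chr8:68880491-68907448, plus strand), read 782, 621, 628, 691 and 609 in db/m of 26 weeks and ran from 131 to 207 with a median of 156 in db/db Unx. The range in db/m of 35 weeks was 597 to 754 with a median of 651 and db/db Unx read 197, 193, 199, 142 and 151. It too was separated at both ages, 4.12-fold lower (-2.04, SE 0.0952, adjusted p = 1.84e-16) and 3.75-fold lower (-1.91, SE 0.108, adjusted p = 2.01e-14).

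Abca1, which exports cholesterol to lipid-poor apolipoprotein and is a classical LXR target (ENSMUSG00000015243, chr4:53030787-53159895, minus strand), rose. It read 26.4, 26.1, 21.1, 16.6 and 19.2 in db/m of 26 weeks and ran from 44.9 to 90.2 with a median of 60.2 in db/db Unx. In db/m of 35 weeks it ran from 32.6 to 43.3 with a median of 36.3 and db/db Unx read 51.3, 64, 59.4, 75 and 84.3. The groups did not overlap, and the rise was 2.69-fold at 26 weeks (1.43, SE 0.132, adjusted p = 3.42e-10) and 1.77-fold at 35 weeks (0.82, SE 0.15, adjusted p = 6.55e-05). Abcg1, which exports cholesterol to mature lipoprotein and is likewise an LXR target, was not called (0.23, SE 0.199, and 0.32, SE 0.226). Cd36 and Abca1 are also expressed by macrophages, Cd36 by endothelium, and Cd36 and Lpl by fat. The summed value of 10 macrophage markers ran from 151 to 227 in db/m and from 107 to 217 in db/db Unx at 26 weeks, with 1 marker higher and 2 lower, and from 135 to 217 and from 151 to 581 at 35 weeks, with 6 higher and 0 lower. Of 8 endothelial markers, Kdr and Emcn fell at both ages and Plvap rose at 35 weeks (0.23), and the sums ran from 387 to 445 and from 318 to 422 at 26 weeks and from 377 to 458 and from 320 to 433 at 35 weeks. Of 10 adipocyte markers 3 were in the table, Fabp4, Cidec and Plin4, and Plin4 rose at both ages while the other 7 were not analysed here. The summed value of these 3 ran from 42.8 to 62.5 and from 49 to 76.4 at 26 weeks, and from 46 to 80.6 and from 43.7 to 98.1 at 35 weeks. Beside these marker counts, 17.2% of all genes rose and 17.7% fell at 26 weeks, and 15.9% rose and 16.4% fell at 35 weeks. The marker counts of 35 weeks include the 3 libraries that lay apart. The part of macrophages, endothelium and fat in the values of Cd36, Lpl and Abca1 was not tested.

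**Figure D4:**
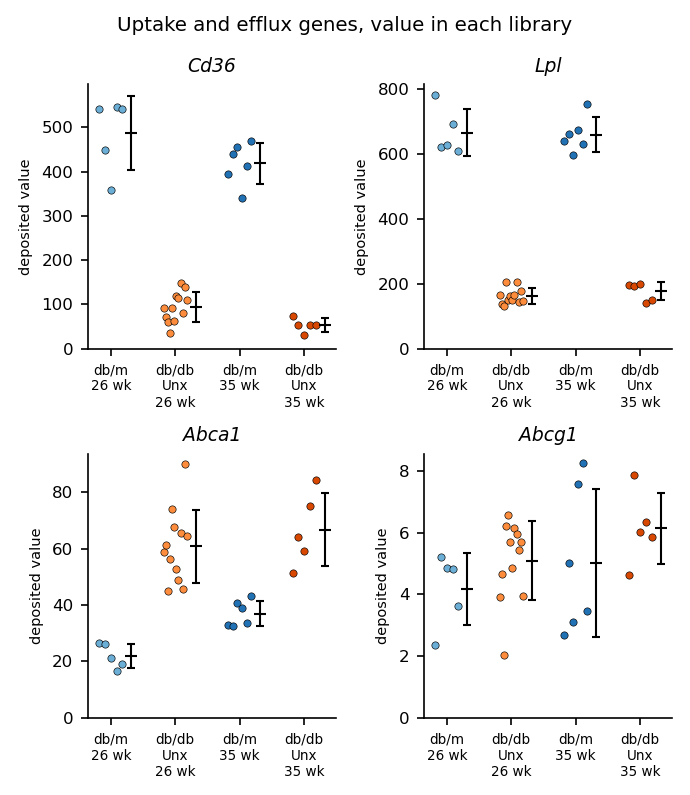
Deposited value of the 4 uptake and efflux genes in each library, 1 point per library, with the group mean and SD drawn beside the points and each vertical axis starting at 0. Cd36 and Lpl lie lower and Abca1 higher in db/db Unx at both ages without overlap, and the groups of Abcg1 overlap.

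The sterol and fatty acid branches were set side by side by averaging, in each library, the log2 values of a branch after centring each gene on its mean over all libraries. The sterol mean of 17 genes ran from 0.27 to 0.35 in db/m and from -0.28 to -0.08 in db/db Unx at 26 weeks, and from 0.21 to 0.38 and from -0.38 to -0.13 at 35 weeks, without overlap. The fatty acid mean of 8 genes ran from -0.22 to 0.03 and from -0.29 to 0.13 at 26 weeks, and from -0.21 to 0.37 and from 0.04 to 0.23 at 35 weeks, with overlap at both ages. Opposed changes within the fatty acid branch, such as those of Me1 and Elovl6, offset each other in that mean. The sterol mean drew most on Idi1 (-2.26 and -2.88) and Cyp51 (-2.004 and -2.44), while 8 of the 17 enzymes were called at neither age. These means describe lists chosen with results of these data known and carry no test.

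**Figure D5:**
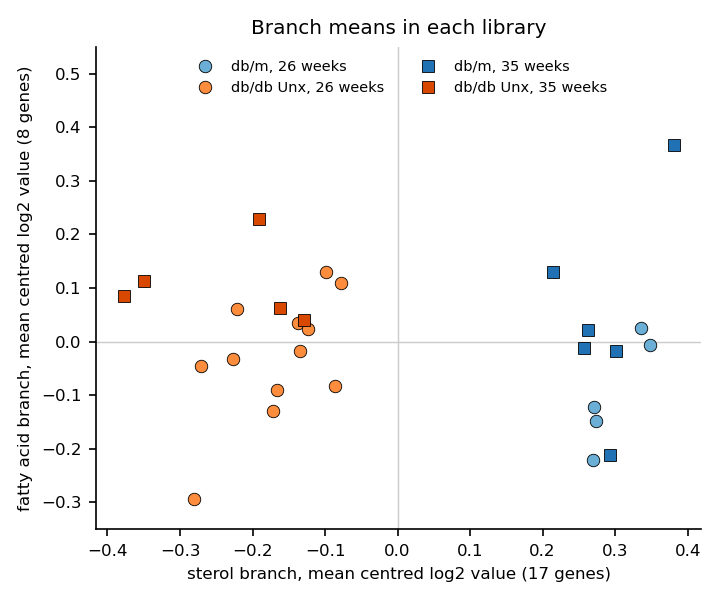
Mean centred log2 value of the 17 sterol enzymes (horizontal axis) and of the 8 fatty acid synthesis genes (vertical axis), 1 point per library, circles for 26 weeks and squares for 35 weeks. Diseased libraries lie left of 0 and control libraries right of 0 on the sterol axis, and the groups overlap on the fatty acid axis.

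Among the 12 db/db Unx libraries of 26 weeks, members of a branch varied together little. The median pairwise Pearson r of log2 values was 0.0558 over the 136 pairs of sterol enzymes, 0.11 over the 28 pairs of fatty acid genes and 0.112 over the 136 pairs between the branches, beside -0.0004 over all pairs of genes tested. The lower and upper quartiles were -0.17 and 0.28 for sterol pairs, -0.03 and 0.25 for fatty acid pairs and -0.11 and 0.29 between the branches. Over all pairs of genes tested they were -0.22 and 0.22. Single pairs ran from -0.58 to 0.69 among sterol enzymes, -0.34 to 0.64 among fatty acid genes and -0.62 to 0.81 between the branches. All pairs share the same 12 libraries and their scaling, and the values are a description.

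Few of the 35 genes were called between the ages. In db/db Unx kidney, Sqle (0.47, adjusted p = 0.0193) and Scd1 (1.09, adjusted p = 0.00271) rose from 26 to 35 weeks and Ebp (-0.21, adjusted p = 0.0219) and Cd36 (-0.75, adjusted p = 0.0415) fell, where 5.16% of all genes rose and 6.14% fell. Without the 3 libraries of 35 weeks that lay apart, which leaves 2 libraries of that age, 0 of the 35 genes rose and 0 fell at an adjusted p below 0.05, and over all 13417 genes in that fit 1 rose and 7 fell. The log2 changes in that fit were 0.86 for Scd1, 0.22 for Sqle, -0.14 for Ebp and -0.46 for Cd36. Single libraries also decided calls: Sqle lost its call without db/db Unx replicate 03 or 05 of 35 weeks (adjusted p of 0.0919 and 0.0932), Ebp without any of replicates 01, 03, 05 and 06 of 35 weeks (0.0539 to 0.085) and Cd36 without any of 11 libraries, replicates 01, 05, 07, 08, 09, 11 and 12 of 26 weeks and 02, 03, 05 and 06 of 35 weeks (0.0525 to 0.161). In db/m kidney Fasn (0.51, adjusted p = 0.0135) and Abca1 (0.74, adjusted p = 0.00218) rose and Sc5d (-0.34, adjusted p = 0.0312) fell, against 2.73% and 4.68% of all genes. The Fasn call was lost without db/m replicate 03 of 26 weeks (0.0537), and that of Sc5d without any of 6 db/m libraries, replicates 01, 02, 03 and 05 of 26 weeks and 03 and 05 of 35 weeks (adjusted p up to 0.1003). Cell markers moved with age in db/db Unx as well, where 5.16% of all genes rose and 6.14% fell. Of 10 macrophage markers 7 rose and 0 fell (median log2 change 0.84 over the 10), and of 10 proximal tubule markers 3 fell and 0 rose. These marker counts include the 3 libraries that lay apart, and without those libraries 1 of all 13417 genes rose and 7 fell. The part of these markers in the age values was not tested. Age cannot be told apart from processing in batches by age, on which the labels are silent.

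The disease comparison was not shown to differ between the ages for any of the 35 genes. In the interaction test 0 were called, where 0.548% of all genes were, and 5 had an unadjusted p below 0.05, where 12.6% of all genes did. These 5 were Idi1 (-0.62), Msmo1 (-0.46), Sqle (0.48), Elovl6 (-0.47) and Abca1 (-0.61), with adjusted p of 0.156 to 0.344. A difference that misses this test is not shown to be absent, and the standard errors of these 5 differences ran from 0.167 to 0.271.

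Levels can be compared between genes only after division by exon length, taking the values to hold no length correction. In medians per kilobase of exon, the order in db/m of 26 weeks was Me1 (171), Cd36 (151), Lpl (59.9), Cyp51 (52.1), Ebp (51.6), Mvd (40.5), Hmgcs1 (33.3), Idi1 (29.9), Nsdhl (28.9) and Acly (23.2), and db/m of 35 weeks had the same first 10 in the same order. In db/db Unx of 26 weeks it began with Me1 (72.5), Ebp (39.5), Acly (38.7) and Cd36 (25.6), and at 35 weeks with Me1 (64.3), Acly (39.8), Ebp (31.8) and Hmgcs1 (25.5). In the mean over all 28 libraries, which mixes groups of unequal size, Me1 stood highest (111), followed by Cd36 (63.1), Ebp (41.2), Lpl (34.5), Acly (34), Mvd (29), Cyp51 (28), Hmgcs1 (27.6) and Nsdhl (23.7). Of these 9 genes, 8 fell at both ages, where 12.4% of all genes did, and Acly rose. Of the other 26, 5 fell at 26 weeks (19.2%) and 7 at 35 weeks (26.9%). Among all genes tested, of any level, 17.7% fell at 26 weeks and 16.4% at 35 weeks. Among all genes tested at the level of Nsdhl or above, 39.6% fell at 26 weeks and 34.5% at 35 weeks. The 9 were chosen after their values were seen. The median standard error of the log2 change was 0.0759 for the 9 and 0.113 for the other 26 at 26 weeks.

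Further genes of the same pathways came from lists drawn up by function. Beside their counts, 17.2% of all genes tested rose and 17.7% fell at 26 weeks. At 35 weeks 15.9% rose and 16.4% fell. Of 10 other sterol synthesis and SREBP genes, 1 rose and 5 fell at each age. Rnf145, a sterol-responsive ubiquitin ligase of the endoplasmic reticulum (-0.81 and -0.83), and Lbr, which carries a sterol reductase activity parallel to that of Tm7sf2 (-0.99 and -0.65), fell, and Tmem97, a sterol-binding protein induced by SREBP2, rose (0.49 and 0.48). Of 13 other fatty acid synthesis genes analysed here, 2 rose and 6 fell at each age. Elovl2, an elongase of polyunsaturated fatty acids, rose (1.22 and 1.17), as did Acacb, the mitochondrial acetyl-CoA carboxylase, at 26 weeks (0.64, with 0.30 and no call at 35 weeks) and Thrsp, a lipogenic activator, at 35 weeks (0.80, with 0.34 and no call at 26 weeks). Acss2, which makes acetyl-CoA from acetate (-0.79 and -0.85), Fads2, a desaturase (-0.45 and -0.71), and Hsd17b12, an elongation reductase (-0.32 and -0.26), fell.

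Genes of sterol storage, oxidation, efflux and LXR were called in both directions. Of the 12 analysed here, 1 rose and 3 fell at 26 weeks, against 17.2% and 17.7% of all genes. At 35 weeks 2 rose and 4 fell, against 15.9% and 16.4%. Cyp7b1, which hydroxylates oxysterols, fell (-2.29 and -3.09), while Cyp27a1, the mitochondrial sterol 27-hydroxylase, rose (0.84 and 0.78). Soat1, which esterifies cholesterol (-0.31 and -0.35), fell at both ages, Nr1h3, which encodes LXR alpha, fell at 35 weeks (-0.29, with -0.17 and no call at 26 weeks) and Npc2, a lysosomal sterol carrier, rose at 35 weeks (0.14, with -0.10 and no call at 26 weeks). Of 22 genes of fatty acid binding, activation and triglyceride handling, 9 rose and 2 fell at 26 weeks, against 17.2% and 17.7% of all genes. At 35 weeks 11 rose and 1 fell, against 15.9% and 16.4%. More of this list rose than fell at each age, while Cd36 and Lpl fell. Fabp3, a cytosolic fatty acid binding protein (0.85 and 0.77), Slc27a1, a fatty acid transport protein (0.98 and 0.62), and Acsl1, a long-chain acyl-CoA synthetase (1.06 and 0.65), rose. Slc27a2, another fatty acid transport protein and acyl-CoA synthetase, fell (-0.87 and -0.88), and Fabp5 fell at 26 weeks (-0.45, with -0.35 and no call at 35 weeks). The median log2 change of these 22 genes was 0.18 and 0.30.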

How the data were processed

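The data are bulk RNA-seq of kidney total RNA, prepared with TRIzol, an RNeasy kit and a Nextera XT kit per the labels. The authors deposited 1 signal value per gene and library, in 14845 rows and 28 columns. DRAGEN and the build GRCm38 (mm10) are named in the submitters' processing notes. Not given in the sources used here are the DRAGEN version, annotation, scaling, strand setting and gene filter. From 89.4% to 92.3% of the low values in a library lay within 0.1 of a whole multiple of a library-specific step, which put the depth at 21.7 to 30.7 M (mega) estimated counts. Because the rest did not, no count model was run.

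Symbols and coordinates came from GENCODE M21, which matched 14834 identifiers. Genes were kept if 5 or more libraries had a value of 1 or more (13495). The values were used as deposited, as log2(value + 1), which understates the change of low genes. limma 3.58.1 in R 4.3.3 was fitted with 1 mean per group, robust empirical Bayes and a mean-variance trend, and the code was tested on simulated data. Tests were two-sided, adjusted by Benjamini-Hochberg over all genes kept, with a threshold of 0.05. Log2 changes carry moderated standard errors. All 35 genes are named, and values by library or range are given for those called with a log2 change of at least 0.8 in size. Values of other genes were added after they were seen. Of each further pathway list, up to 3 called genes per direction are named, except 1 that is not reported here. The members and lists were chosen with earlier results of these data known, so no list test is given. Promoter windows are RefSeq's on GRCm38.p6. Alternatives were other pseudocounts, filters, scalings and moderation, a fit of only the groups compared, a replicate block, and leaving out libraries.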

Additional observations from a re-analysis of the deposited data

Results flagged for a closer look

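Among the 105 sets of values formed by 35 genes in the 3 groups of 4 to 10 libraries, 6 held a library whose gap to its nearest neighbour took an unusually large share of the group's range by Dixon's 95% critical value, measured on log2(value + 1). The shares below are on that scale, and the values beside them are as deposited. Chance flags about 1 in 20 such sets. In db/m at 26 weeks, replicate 03 was the lowest library for Dhcr7 (11.2, the next at 17.98, a share of 0.754), Fasn (26 against 33.9, 0.729) and Scd1 (11.2 against 17.1, 0.743), and replicate 04 was the highest for Acly (153 against 127, 0.748). Without replicate 03 the 26-week call of Scd1 was lost (adjusted p = 0.116) and that of Dhcr7 was kept. In db/m at 35 weeks, replicate 05 was the lowest for Idi1 (68.9 against 114, 0.742) and still above every diseased library. In db/db Unx at 35 weeks, replicate 02 was the highest for Sc5d (42.1 against 31.3, 0.754). On the deposited values themselves, 3 of the 6 shares stayed above the critical value (Idi1 0.675, Sc5d 0.788 and Acly 0.771) and those of Dhcr7 (0.698), Fasn (0.693) and Scd1 (0.691) did not.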

How the results depend on the processing

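Of 52 single-gene results followed through the alternatives, 37 kept their call in every one and 0 reversed. Other pseudocounts, filters, scalings and moderation changed none of the 52. In db/db Unx, 2 genes higher and 2 lower with age became 0 and 0 without the 3 libraries that lay apart, where calls over all genes went from 5.16% and 6.14% to 1 and 7 genes. Replicate numbers of the labels did not pair the libraries: deviations of libraries with the same number correlated at -0.135 to 0.084, and those with different numbers at -0.147 to 0.171. With the number as a replicate block, the db/db Unx age counts were 1 higher and 0 lower, the db/m count of genes lower with age went from 1 to 0, Scd1 at 26 weeks (0.33, adjusted p = 0.424) and Fasn at 35 weeks (-0.31, adjusted p = 0.0763) were not called, and the disease counts were 3 higher and 13 lower at 26 weeks and 4 and 14 at 35 weeks. Leaving out each of the 28 libraries in turn gave 3 to 4 higher and 13 to 15 lower at 26 weeks, 4 to 5 and 14 to 15 at 35 weeks, 1 to 2 and 0 to 3 with age in db/db Unx, and 1 to 2 and 0 to 1 with age in db/m. Among sterol enzymes 0 to 1 were higher and 8 to 9 lower at 26 weeks. The 1 higher was Pmvk without db/m replicate 03 (0.30, adjusted p = 0.0336). The median sterol change ran from -0.40 to -0.27 at 26 weeks and from -0.44 to -0.34 at 35 weeks. Fatty acid genes gave 2 to 3 higher at 26 weeks and 3 to 4 higher and 2 to 3 lower at 35 weeks, with medians of 0.06 to 0.13 and 0.15 to 0.30. The fit of only the groups compared called Sqle (-0.31, adjusted p = 0.0153) and Scd2 (0.26, adjusted p = 0.0375) at 26 weeks and lost Cd36 with age in db/db Unx (-0.75, adjusted p = 0.110). At 26 weeks Sqle was also called without 3 single libraries (adjusted p of 0.0325 to 0.0496), and Msmo1 without db/m replicate 05 (adjusted p = 0.0194). The causes were not tested. Whether depth limits the precision of single genes was not tested.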
